A study of Mus musculus with 7 samples.

Results

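The genes described here are 10 genes of DNA replication: *Mcm2*, *Mcm3*, *Mcm4*, *Mcm5*, *Mcm6*, *Mcm7*, *Pcna*, *Rrm2*, *Tyms* and *Cdc6*. They were chosen by name, as all probes that the array's annotation assigns to these symbols, and make up 10 of 35715 gene names on the array. Each of 7 mice on the C57BL/6J background, aged 4 weeks, gave RNA of whole liver for 1 single-colour array with probes for the whole mouse genome. The Rbpj-/- group held 3 *AlfpCre*+ *Rbpj* flox/flox mice with cholestasis, and the Rbpj+/+ group 4 *AlfpCre*- *Rbpj* flox/flox mice without cholestasis. Both genotypes thus carried the floxed *Rbpj* alleles, the mice were untreated, and the *Cre* transgene, driven by albumin and alpha-fetoprotein control elements, acts in the hepatoblast lineage from the embryo on, so that other liver cells keep the gene. RBPJ is the DNA-binding factor through which Notch receptors switch genes on. The question was how the replication genes differ between liver with and without this deletion.

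Before a cell copies its DNA, the origin recognition complex together with CDC6 and CDT1 loads the ring-shaped helicase made of MCM2 to MCM7 onto origins, a step called licensing. In S phase the helicase is switched on by further factors, unwinds the DNA, and is followed by polymerases that are held on their template by the sliding clamp PCNA. The nucleotides for this come in part from ribonucleotide reductase, whose small subunit is encoded by *Rrm2*, and from thymidylate synthase, encoded by *Tyms*. The genes of this apparatus are low in resting hepatocytes and are transcribed when cells enter the cycle, in large part through E2F factors, which the pocket proteins of the RB family hold in check.

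The promoters of *Mcm2*, *Mcm5* and *Mcm6* are printed because these 3 genes differed strongly between the genotypes, and their promoters differ in matches to the E2F site. The stretches come from the RefSeq promoter table (GRCm38.p6), run 5′ to 3′ along the strand of the gene, and end at the last base before the annotated gene. *Mcm2* lies on the minus strand (chr6:88898781-88899030), *Mcm5* on the plus strand (chr8:75109259-75109467) and *Mcm6* on the minus strand (chr1:128359706-128359955). Capitals mark matches on either strand to 3 forms of the E2F site. The first form searched was TTCGCGC. A further form that E2F factors are known to bind is TTGGCGC. The last form, TTCCCGC, has been described in many cell cycle promoters. Overlapping matches were counted singly.
Mcm2: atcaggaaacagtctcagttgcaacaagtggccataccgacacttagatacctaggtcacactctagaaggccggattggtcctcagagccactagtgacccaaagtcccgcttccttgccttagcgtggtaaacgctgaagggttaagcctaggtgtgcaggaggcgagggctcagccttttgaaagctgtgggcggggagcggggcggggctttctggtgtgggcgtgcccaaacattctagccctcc
Mcm5: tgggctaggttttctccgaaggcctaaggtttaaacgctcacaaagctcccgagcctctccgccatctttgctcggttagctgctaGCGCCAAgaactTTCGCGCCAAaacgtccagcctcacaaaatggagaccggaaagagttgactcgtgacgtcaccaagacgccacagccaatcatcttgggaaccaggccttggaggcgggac
Mcm6: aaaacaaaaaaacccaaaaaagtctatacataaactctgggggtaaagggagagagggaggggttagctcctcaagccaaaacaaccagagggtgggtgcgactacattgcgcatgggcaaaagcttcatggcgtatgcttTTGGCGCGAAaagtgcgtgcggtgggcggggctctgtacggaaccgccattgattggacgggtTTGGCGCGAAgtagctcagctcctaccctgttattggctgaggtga
The *Mcm5* stretch holds 3 such matches and the *Mcm6* stretch 4, while the *Mcm2* stretch holds none. Over the whole window of 300 bases, which reaches from 250 bases before to 50 bases after the start, 5 of 9 replication genes with a promoter entry had a match, namely *Cdc6*, *Mcm3*, *Mcm5*, *Mcm6* and *Mcm7*. Such a match was present in 9.20% of 27025 genes with a promoter of this length and in 52.0% of 98 other genes of the replication, E2F and mitosis lists described further below. *Mcm2*, *Pcna*, *Rrm2* and *Tyms* had no match in this window. A CCAAT box (CCAAT, either strand) was present in 7 of 9 of the genes and in 41.1% of all genes, and the CHR element of late cell cycle genes (TTTGAA, either strand) in 1 of 9, *Mcm2*, and in 20.2% of all genes. A CCAAT match overlapped an E2F match in the promoter of *Mcm7* only. These are matches of letters in a window and show no binding.

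Levels are given as normalised log2 intensity, which is the log2 intensity of the probe minus the 75th percentile of its array, so that 0 equals this percentile and 1 unit equals a factor of 2. A difference was called when limma's adjusted p, taken over all 24566 tested probes, was below 0.1. In Rbpj-/- liver 9 of 10 genes were called higher and 0 lower, while 14.6% of 18785 tested genes on the array were called higher and 19.5% lower. With quantile normalization 16.6% of all genes were called higher, out of 31.8% called in either direction, so that the excess of lower calls over the array depends on the scaling. The median log2 fold change of the 10 genes was 1.89 (range 0.22 to 2.63), whereas the median of all tested genes was -0.13. For 9 of 10 genes every Rbpj-/- animal lay above every Rbpj+/+ animal, which held for 15.4% of all tested genes. All 6 MCM genes were among those called, and *Tyms* was the 1 gene that did not pass.

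**Figure D1:**
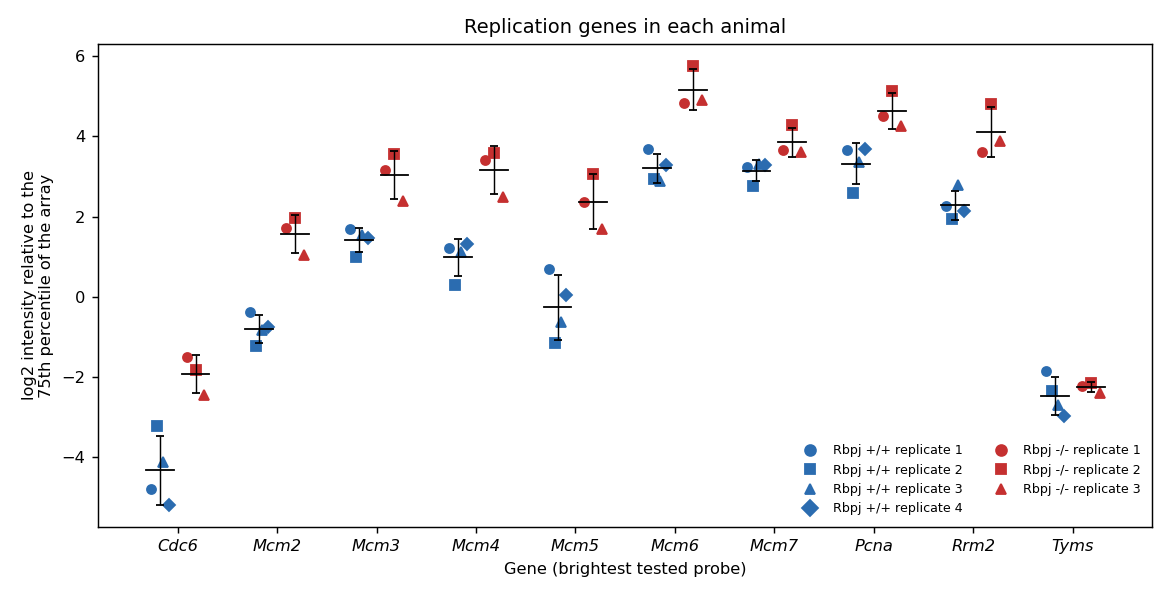
Normalised log2 intensity (vertical axis) of the brightest tested probe of each of the 10 genes (horizontal axis) in 4 Rbpj+/+ animals (blue) and 3 Rbpj-/- animals (red), with the mean and SD of each genotype in black. The genotypes are separate for all genes but *Tyms*, and Rbpj-/- replicate 2 (red square) is the highest Rbpj-/- animal for 9 of the 10 genes.

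Because the RNA came from whole liver, a higher share of cycling cells and more RNA per cell cannot be told apart. The Rbpj+/+ arrays lay in row 1 and the Rbpj-/- arrays in row 2 of the same slide, so that row and genotype cannot be told apart either. Between 41.2% and 65.0% of the probes were well above background on each array, with the highest shares in Rbpj-/- replicate 1 and Rbpj+/+ replicate 2, and no spot was saturated. Both tested probes for *Rbpj* itself were called lower in Rbpj-/- liver. The dimmer one had a log2 fold change of -1.63 (limma adjusted p = 0.072). Its values overlapped between the genotypes (p = 0.11 in the exact two-sided permutation test). The brighter one averaged 0.60 ± 0.34 (SD) on the scale of normalised log2 intensity over 4 Rbpj+/+ animals and -0.54 ± 0.22 (SD) over 3 Rbpj-/- animals (limma adjusted p = 0.012). Whether it lies in the deleted part of the gene was not determined here.

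The loading factor gene *Cdc6* rose above background in Rbpj-/- liver only. Its brighter probe (mm9, chr11:98782986-98783045) had intensities of 50.2, 36.7 and 21.8 in Rbpj-/- replicates 1 to 3, and 3.73, 9.19, 3.30 and 2.07 in Rbpj+/+ replicates 1 to 4. It stood well above background in 3 of 3 Rbpj-/- animals but in 0 of 4 Rbpj+/+ animals, so that its Rbpj+/+ values rest on background signal. *Cdc6* was at least 4.16-fold higher in Rbpj-/- liver, where the bound sets each Rbpj+/+ array at the higher of its measured value and its lowest signal well above background (limma adjusted p = 0.0077, and p = 0.057 in the exact two-sided permutation test). The gene was thus tested only through the group in which it was high. Of the 8 genes well above background on all 7 arrays, 8 were called higher when the test was limited to such probes. With normexp background correction, which adds an offset of 50 to all signals and so compresses dim ones, the log2 fold change was 0.12 and was not called (limma adjusted p = 0.56). The second *Cdc6* probe (chr11:98785169-98785228) stood well above background in 2 of 3 Rbpj-/- and 0 of 4 Rbpj+/+ animals, too few to be tested. CDC6 is made anew when a cell returns from rest to the cycle and is needed before any helicase can be loaded.

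Among the helicase genes, *Mcm5* and *Mcm2* had the largest fitted differences in the main setting. With normexp background correction their log2 fold changes were 2.03 and 1.58, both still called, and *Mcm6* and *Mcm4* were larger, at 2.15 and 2.09. The *Mcm5* probe (mm9, chr8:77651350-77651410) read 0.70, -1.16, -0.63 and 0.05 in Rbpj+/+ replicates 1 to 4 and 2.35, 3.07 and 1.69 in Rbpj-/- replicates 1 to 3. All Rbpj-/- animals lay above all Rbpj+/+ animals, although the Rbpj+/+ animals were spread over more than 1 log2 unit. *Mcm5* was thus 6.19-fold higher in Rbpj-/- liver (log2 fold change 2.63, SE 0.47, 95% interval 1.57 to 3.69, limma adjusted p = 0.0064). MCM5 forms with MCM2 the gate of the ring through which DNA enters. *Mcm2* (chr6:88833619-88833678) read -0.38, -1.21, -0.84 and -0.76 in the Rbpj+/+ animals and 1.71, 1.96 and 1.04 in the Rbpj-/- animals. Here the Rbpj+/+ animals were close to each other and the genotypes were more than 1 unit apart. The fold change was 5.16 (log2 2.37, SE 0.28, 95% interval 1.73 to 3.01, limma adjusted p = 0.0014).

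*Mcm4*, *Mcm6* and *Mcm7* encode the subunits that make up the core of the helicase. For *Mcm4* (chr16:15624372-15624431) the values were 1.21, 0.30, 1.12 and 1.31 in Rbpj+/+ and 3.41, 3.58 and 2.48 in Rbpj-/- liver, a 4.50-fold difference (log2 2.17, SE 0.34, limma adjusted p = 0.0039). Rbpj+/+ replicate 2 and Rbpj-/- replicate 3 were the lowest animals of their genotypes, and still the genotypes did not overlap. For *Mcm6* (chr1:130228178-130228237) they were 3.68, 2.94, 2.88 and 3.29 in Rbpj+/+ and 4.82, 5.75 and 4.90 in Rbpj-/- liver, a 3.89-fold difference (log2 1.96, SE 0.30, limma adjusted p = 0.0034). The gap between the highest Rbpj+/+ and the lowest Rbpj-/- animal exceeded 1 unit. *Mcm7* differed least within the helicase. Its probe read 3.22, 2.76, 3.30 and 3.28 in Rbpj+/+ and 3.66, 4.27 and 3.62 in Rbpj-/- liver, so that the genotypes were separate but close. The difference was 1.63-fold (log2 0.71, SE 0.24, 95% interval 0.17 to 1.25, limma adjusted p = 0.062). It was not called at a threshold of 0.05, without Rbpj+/+ replicate 3 (limma adjusted p = 0.104) or without Rbpj-/- replicate 2 (limma adjusted p = 0.222, log2 fold change 0.50). The upper end of the *Mcm7* interval lay below the lower ends of *Mcm2*, *Mcm4*, *Mcm5* and *Mcm6*, at 1.73, 1.40, 1.57 and 1.29, and overlapped that of *Mcm3*, whose lower end was 0.93. The difference between the probes was not tested.

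*Mcm3* had 2 probes, which cover nearly the same stretch of the gene (chr1:20793136-20793195 and chr1:20793119-20793178 on the minus strand) and share 43 bases with 1 mismatch. Since both were tested, the pair shows how a near-identical probe repeats the measurement. The stretches around the mismatch are given below with the differing base in capitals, as A31G, counted from base 1 of the brighter probe.
Mcm3 brighter probe: aagctttctttgcAattagactagtatg
Mcm3 second probe: aagctttctttgcGattagactagtatg
The brighter probe read 1.68, 0.98, 1.55 and 1.45 in Rbpj+/+ and 3.15, 3.57 and 2.38 in Rbpj-/- liver (log2 fold change 1.62, SE 0.30, limma adjusted p = 0.0079). The second read 1.34, 0.55, 1.16 and 1.22 in Rbpj+/+ and 3.13, 3.41 and 2.32 in Rbpj-/- liver (log2 fold change 1.88, SE 0.31, limma adjusted p = 0.0044). Both separated the genotypes, put the animals in the same order within Rbpj-/-, and differed in fold change by less than 1 SE. MCM3 is the subunit through which the CDC6-bound origin complex recruits the ring.

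The clamp gene *Pcna*, whose product also recruits repair and chromatin factors to the fork, was 2.49-fold higher in Rbpj-/- liver (log2 1.31, SE 0.32, 95% interval 0.58 to 2.05, limma adjusted p = 0.022). Without a filter on dim probes it was not called (limma adjusted p = 0.15). Its values were 3.67, 2.58, 3.35 and 3.67 in Rbpj+/+ and 4.51, 5.13 and 4.26 in Rbpj-/- liver. The genotypes did not overlap, and Rbpj+/+ replicate 2 was the lowest animal and stood apart from the others. *Rrm2*, the ribonucleotide reductase subunit that is limited to S phase, was 3.53-fold higher (log2 1.82, SE 0.32, 95% interval 1.09 to 2.55, limma adjusted p = 0.0063). It read 2.26, 1.94, 2.79 and 2.13 in Rbpj+/+ and 3.61, 4.80 and 3.88 in Rbpj-/- liver, with no overlap and with Rbpj-/- replicate 2 far above the other two. The exact two-sided permutation test gave p = 0.029 for 8 of the 10 genes, all but *Cdc6* and *Tyms*, which is the smallest value that 35 assignments of 7 animals can give.

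*Tyms*, which makes thymidylate from deoxyuridylate, behaved differently. The values of its probe (chr5:30385578-30385637) were -1.85, -2.35, -2.69 and -2.97 in Rbpj+/+ and -2.22, -2.13 and -2.39 in Rbpj-/- liver. The 3 Rbpj-/- animals lay within the range of the Rbpj+/+ animals. The log2 fold change was 0.22 (SE 0.27, 95% interval -0.40 to 0.83, limma adjusted p = 0.58, exact two-sided permutation p = 0.49), and only 2 of 4 Rbpj+/+ arrays were well above background for it. The array also carries a probe for *Tyms-ps*, a transcribed pseudogene on chromosome 10 named after *Tyms*, which was looked up after the *Tyms* values were seen. It read 1.09, 0.28, 0.77 and 1.05 in Rbpj+/+ and 1.57, 2.17 and 2.12 in Rbpj-/- liver, without overlap (log2 fold change 1.15, SE 0.26, limma adjusted p = 0.016). Whether transcripts of *Tyms* bind to this probe was not tested.

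**Figure D2:**
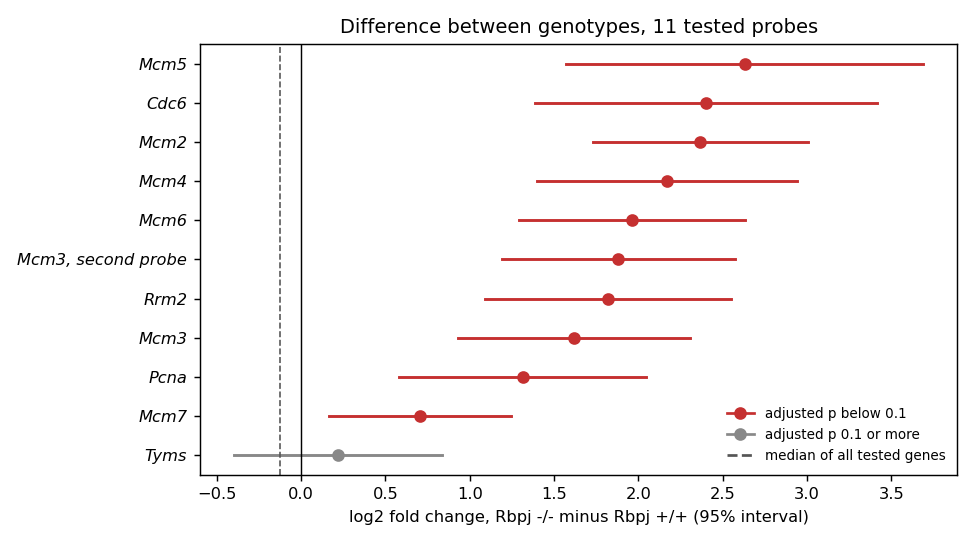
Log2 fold change (Rbpj-/- minus Rbpj+/+, horizontal axis) of the 11 tested probes with 95% intervals from limma. Red marks an adjusted p below 0.1, and the dashed line is the median of all tested genes at -0.13. The 10 red intervals lie above 0, and that of *Tyms* spans it.

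The array design places 3 of the 10 brightest probes on another chromosome than RefSeq gives for the gene. The *Mcm7* probe is placed on chromosome 16 (mm9, chr16:53986163-53986222) and the gene lies on chromosome 5. The *Pcna* probe is placed on chromosome 19 (chr19:9358883-9358942), where RefSeq lists the pseudogene *Pcna-ps2*, and the gene lies on chromosome 2. The *Rrm2* probe is also placed on chromosome 19 (chr19:35175128-35175187), and the gene lies on chromosome 12. The part of processed copies in these signals was not tested, and exon or UTR positions were not assigned, because no mm9 annotation was used here. Of the other 7 genes, whose probes are placed on the chromosome of the gene, 6 were called higher, with a median log2 fold change of 2.17.

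The animals differed from each other in the same direction for most of the genes. Averaged over the 10 genes, the normalised log2 intensity was 0.94, 0.36, 0.67 and 0.63 in Rbpj+/+ replicates 1 to 4 and 2.35, 2.82 and 1.94 in Rbpj-/- replicates 1 to 3. By genotype this mean was 0.65 ± 0.24 (SD) over 4 and 2.37 ± 0.44 (SD) over 3 animals, which differ by 1.72. Rbpj-/- replicate 2 was the highest Rbpj-/- animal for 9 genes and replicate 3 the lowest for 8, while Rbpj+/+ replicate 2 was the lowest Rbpj+/+ animal for 7. After the genotype means were taken away, the 45 pairs of genes had a median correlation of 0.59 over the 7 animals (range -0.61 to 0.96), and 36 pairs were above 0. *Mcm2* and *Mcm3* were the most alike pair, and *Pcna* and *Cdc6* the least. As *Cdc6* was well above background on 0 of 4 Rbpj+/+ arrays, its pairs rest in part on background signal. All probes of an animal share 1 array, so these correlations also hold what the arrays have in common.

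**Figure D3:**
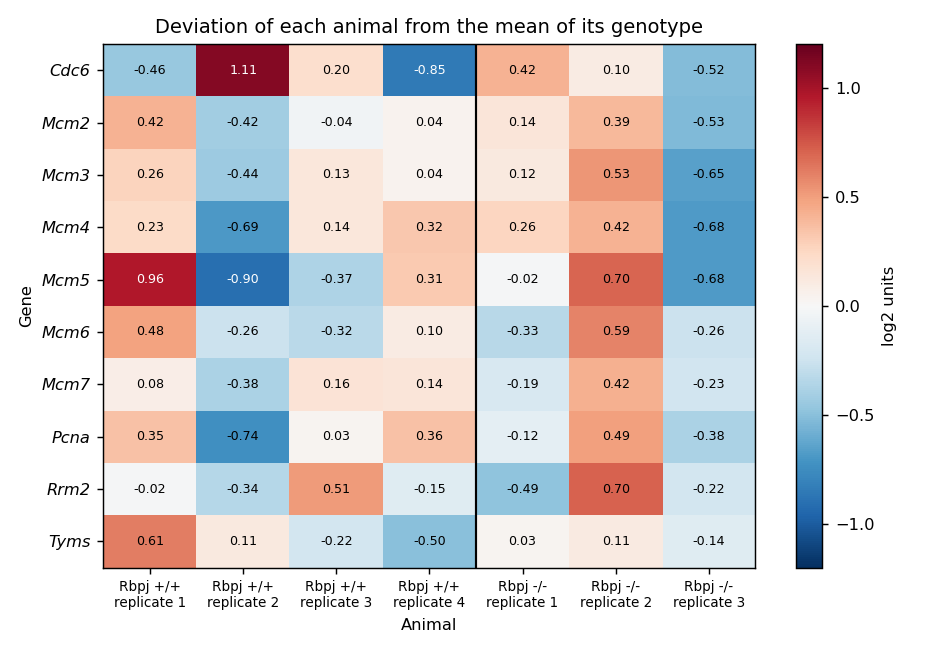
Deviation of each animal (columns) from the mean of its genotype for the 10 genes (rows), in units of normalised log2 intensity, red above and blue below the mean. Rbpj-/- replicate 2 is above its mean for every gene and replicate 3 below, and *Cdc6* stands highest in Rbpj+/+ replicate 2, at 1.11, where 8 genes are below their mean.

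The wider licensing and firing machinery held genes called in both directions. Of 24 listed genes 21 were tested, and 10 were called higher and 2 lower, a share of 47.6% higher beside 14.6% of all tested genes, with a median log2 fold change of 0.54. The largest rises were those of *Ticrr*, which helps to load CDC45 (2.45, limma adjusted p = 0.0091), the GINS subunit gene *Gins2* (1.85, limma adjusted p = 0.017) and *Topbp1*, which acts at firing origins (1.57, limma adjusted p = 0.009). In Rbpj+/+ liver *Ticrr* was well above background in 2 of 4 animals and *Gins2* in 3 of 4, so that both were tested through Rbpj-/- liver. Limited to probes well above background on all 7 arrays, 7 of 17 tested genes of this list were called higher and 2 lower. In that setting 13.8% of all tested genes were called higher. *Cdt1*, the partner of CDC6 in loading, rose by 1.30 (SE 0.29, limma adjusted p = 0.014), and its inhibitor *Gmnn* by 0.71 (limma adjusted p = 0.047). The origin recognition complex was split. *Orc6* rose by 0.74 (limma adjusted p = 0.058) and *Orc4* fell by 0.58 (limma adjusted p = 0.072), *Orc2*, *Orc3* and *Orc5* did not pass, and *Orc1* was not tested because no array showed it well above background. Of the other helicase cofactors, *Gins1* rose by 0.73 (limma adjusted p = 0.093), and *Cdc45*, *Gins3* and *Gins4* had log2 fold changes of 0.18, 0.17 and 0.54 that did not pass.

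The probe annotated to *Mcm10*, whose product joins the helicase when it is switched on, went the other way from the MCM genes of the ring. The 4 Rbpj+/+ animals averaged 4.79 ± 0.05 (SD) and the 3 Rbpj-/- animals 1.66 ± 0.83 (SD). That is a fall by 3.13 on the log2 scale (SE 0.34, limma adjusted p = 0.00096), without overlap between the genotypes. The array holds 1 probe for it, so the direction could not be checked with a second one. *Mcm8*, a paralogue used in recombination, rose by 1.26 (limma adjusted p = 0.013), although it was well above background on only 1 of 4 Rbpj+/+ arrays.

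**Figure D4:**
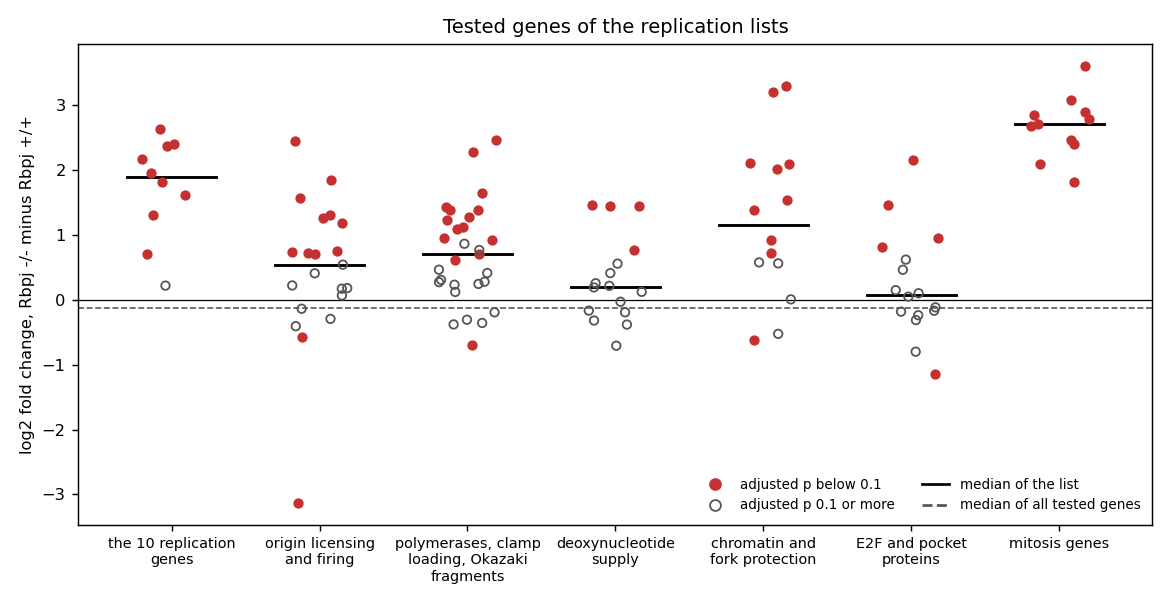
Log2 fold change (Rbpj-/- minus Rbpj+/+, vertical axis) of every tested gene in the replication lists and the mitosis list, 1 point per gene, filled red at an adjusted p below 0.1. Black bars are list medians, from 0.08 for E2F and pocket proteins to 2.72 for mitosis genes, and the lowest point is *Mcm10* at -3.13.

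Polymerases, clamp loader and Okazaki fragment enzymes followed with 14 of 29 tested genes higher and 1 lower, or 48.3% higher beside 14.6% of all tested genes (median log2 fold change 0.71). *Pole2* and *Pole*, both of the leading strand polymerase, rose by 2.46 and 1.64 (limma adjusted p = 0.0027 and 0.0053), although *Pole2* was well above background in only 1 of 4 Rbpj+/+ animals. *Dscc1*, of an alternative clamp loader, stood well above background in 0 of 4 Rbpj+/+ and 3 of 3 Rbpj-/- animals. Estimated as for *Cdc6*, it was 3.37-fold higher (limma adjusted p = 0.021), but its measured values overlapped between the genotypes (exact two-sided permutation p = 0.086). *Dscc1* was thus tested only through the group in which it was high, as was *Pole2*. Among probes well above background on all 7 arrays, 12 of 24 tested genes of this list were called higher and 1 lower, beside 13.8% of all tested genes higher. *Fen1* and *Lig1*, which trim and seal Okazaki fragments, rose by 1.38 each (limma adjusted p = 0.011 and 0.0052). Among the clamp loader subunits *Rfc2* and *Rfc4* rose by 0.95 and 0.92 (limma adjusted p = 0.023 and 0.029), and *Rfc1*, *Rfc3* and *Rfc5* did not pass, with log2 fold changes of 0.28, 0.86 and 0.12. The gene that fell was *Rnaseh2c*, a subunit of the enzyme that removes RNA from DNA (fell by 0.70, limma adjusted p = 0.054).

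Deoxynucleotide supply moved in few genes. Of 16 tested genes 4 were called higher and 0 lower, a share of 25.0% against 14.6% of all tested genes, and the median log2 fold change was 0.20. *Rrm1*, the large subunit that pairs with the product of *Rrm2*, rose by 1.46 (SE 0.24, limma adjusted p = 0.0044). *Dck*, which salvages deoxycytidine and was well above background in 2 of 4 Rbpj+/+ animals, rose by 1.45 (limma adjusted p = 0.076), and *Ctps*, which makes CTP, by 1.44 (limma adjusted p = 0.064), although Rbpj-/- replicate 3 lay within the Rbpj+/+ range for *Ctps* (exact two-sided permutation p = 0.086). The fourth was *Samhd1*, whose product breaks deoxynucleotides down (0.77, limma adjusted p = 0.024). *Tk1* and *Dut*, which act beside *Tyms* in thymidylate supply, had log2 fold changes of 0.41 and 0.56 and did not pass. When only probes well above background on all 7 arrays were tested, 4 of 15 genes of this list were called higher and 0 lower.

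Genes that rebuild chromatin or protect forks behind the helicase were called higher in 9 of 14 tested cases and lower in 1, or 64.3% higher beside 14.6% of all tested genes (median log2 fold change 1.16). *Uhrf1*, which keeps DNA methylation in place after replication, rose by 3.30 (SE 0.40, limma adjusted p = 0.0015), more than any of the 10 genes in fitted value. *Hells*, a chromatin remodeller, was well above background in Rbpj-/- liver alone and, estimated as for *Cdc6*, 3.53-fold higher (limma adjusted p = 0.020). It was thus tested only through the group in which it was high. Where a probe had to be well above background on all 7 arrays, 7 of 11 tested genes of this list were called higher and 1 lower. The gene called lower was *Pclaf*, whose product binds PCNA (fell by 0.63, limma adjusted p = 0.085). Its second probe was well above background in 0 of 4 Rbpj+/+ and 3 of 3 Rbpj-/- animals. Estimated as for *Cdc6*, this probe was 3.47-fold higher (limma adjusted p = 0.0012), so no direction can be given for *Pclaf*.

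Of the E2F and pocket protein genes, 4 of 16 tested were called higher and 1 lower, a share of 25.0% higher beside 14.6% of all tested genes, and the median log2 fold change was 0.08. *Rbl1*, which encodes the pocket protein p107, rose by 2.15 (limma adjusted p = 0.0027) and was well above background in 3 of 4 Rbpj+/+ animals. The activator genes *E2f1* and *E2f2* rose by 1.46 and 0.95 (limma adjusted p = 0.0024 and 0.044), and the fourth gene was *Tfdp1*, the partner of E2F factors (0.82, limma adjusted p = 0.052). *E2f3* had a log2 fold change of 0.05 and *Rb1* of -0.18, and neither passed. If probes had to be well above background on all 7 arrays, 3 of 15 tested genes of this list were called higher and 2 lower, beside 13.8% of all tested genes higher. The repressor gene *E2f7* was called lower by its brightest probe (fell by 1.14, limma adjusted p = 0.011) and higher by its second (2.44, limma adjusted p = 0.0087), which stood well above background in 2 of 4 Rbpj+/+ animals. It and *Pclaf* were the 2 of 27 listed genes with several tested probes whose probes were called in opposite directions.

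All 11 tested mitosis genes of the list were called higher, or 100% beside 14.6% of all tested genes. Their median log2 fold change was 2.72 beside 1.89 for the 10 replication genes, a difference that was not tested. Only 7 of the 11 could be tested where a probe had to be well above background on all 7 arrays, and these 7 were called higher. The largest rises were those of *Top2a* (3.61), *Bub1* (3.08) and *Plk1* (2.90), with limma adjusted p of 0.0024, 0.0017 and 0.0031. *Top2a* was well above background in 1 of 4 and *Bub1* in 2 of 4 Rbpj+/+ animals.

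Cell type markers differed between the genotypes as well. Over the array 14.6% of all tested genes were called higher and 19.5% lower. The marker counts were not tested against these shares. Of 6 macrophage markers 5 were called higher, led by *Marco* (2.92, limma adjusted p = 0.0022). Their summed level, in multiples of the 75th percentile of the array, was 98.3 to 130.8 in Rbpj+/+ and 350.4 to 461.7 in Rbpj-/- liver. Such a sum adds the linear levels of all genes of a list with a probe, tested or not, so that the brightest genes weigh most. Of 5 stellate cell and fibroblast markers 4 were higher, led by *Acta2* (1.70), with sums of 12.4 to 21.1 and 27.6 to 49.3. Of 5 tested cholangiocyte markers 3 were higher, led by *Cldn7* (2.21), with sums of 3.30 to 4.29 and 6.51 to 13.1. The bile duct keratins *Krt19* and *Krt7* had log2 fold changes of 0.25 and -0.45 that did not pass, and *Epcam* was not tested. The sums of these 3 lists did not overlap between the genotypes, which held for every marker list but the endothelial one. By single markers, all Rbpj-/- animals lay above all Rbpj+/+ animals for 6 of 6 macrophage and 4 of 5 stellate cell and fibroblast markers. The same held for 2 of 5 tested cholangiocyte markers, and for 15.4% of all tested genes.

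Hepatocyte markers moved the other way. Of 8 genes 5 were called lower and 0 higher, beside 19.5% and 14.6% of all tested genes. Their sums were 4000 to 5344 in Rbpj+/+ and 2570 to 2950 in Rbpj-/- liver. *Cps1*, the marker with the largest difference, had a log2 fold change of 0.94 that did not pass. All 8 were well above background on all arrays. Of 5 tested erythroid markers 2 were lower and 1 higher, or 20% higher beside 14.6% of all tested genes. Their median log2 fold change was 0.04. The summed level of the 7 erythroid markers with a probe was between 41.9 and 66.4 in Rbpj+/+ and between 8.04 and 24.9 in Rbpj-/- liver. This sum thus does not stand for the list as a whole. *Tfrc*, the transferrin receptor gene that dividing cells also use, rose by 2.73 (limma adjusted p = 0.0051). B cell markers were lower in 4 of 4 tested genes, led by *Ms4a1* (fell by 3.34), with sums of 1.96 to 4.53 and 0.81 to 1.67, and T cell markers in 2 of 5, led by *Cd2* (fell by 1.14), with sums of 4.22 to 5.39 and 2.13 to 3.48. Of 6 tested neutrophil markers 2 were higher and 1 lower, with sums of 6.17 to 24.8 and 32.3 to 68.3. The share called higher was 33.3% beside 14.6% of all tested genes. *S100a8* rose by 2.62 (limma adjusted p = 0.019) and *Elane* fell by 0.50 (limma adjusted p = 0.098). Of 5 endothelial markers 1 was higher and 1 lower, and their sums overlapped, at 32.3 to 44.0 and 33.6 to 47.9. Their share called higher, 20%, was close to the 14.6% of all tested genes. *Cdh5* rose by 1.02 (limma adjusted p = 0.016) and *Kdr* fell by 1.19 (limma adjusted p = 0.0069). No marker with a probe was below background on all 7 arrays. The part of these cell types in the replication gene differences was not tested.

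**Figure D5:**
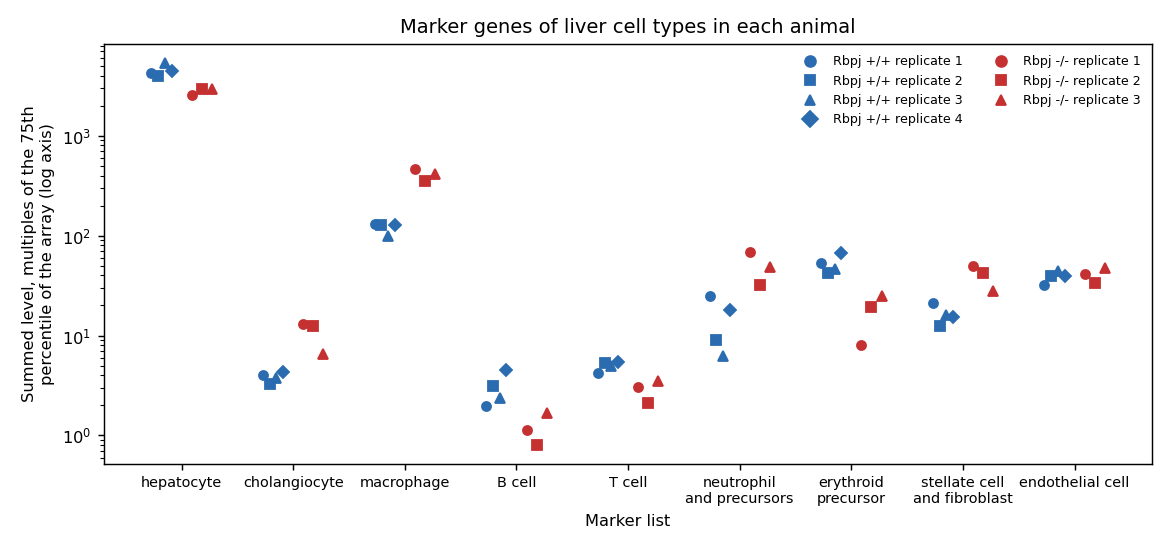
Summed level of the markers of 9 cell types in each animal (vertical log axis, multiples of the 75th percentile of the array), with Rbpj+/+ in blue and Rbpj-/- in red. Macrophage sums are at most 130.8 in Rbpj+/+ and at least 350.4 in Rbpj-/- liver, and endothelial sums overlap. Erythroid sums are at most 24.9 in Rbpj-/- liver, while the 5 tested erythroid markers had a median log2 fold change of 0.04.

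Over the 7 animals, the genes whose levels were most like the mean of the 10 genes were also looked up among 18758 genes measured in every animal. Outside the lists these were *Nampt* (Pearson r = 0.999), *Specc1* (r = 0.998), *5730508B09Rik* (r = 0.995), *Coro1c*, *Zyx*, *Lbr*, *Tesc*, *Cstb*, *Bicc1* and *Rnf138rt1* (r = 0.991 to 0.993). Within the lists the closest were *Pold1* and *Pole2* (r = 0.990 each), *Uhrf1* (r = 0.985), *Fen1*, *Rrm1* and *Lig1* (r = 0.983 each). These values describe likeness over 7 points that share the genotype difference.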

How the data were processed

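The authors deposited spot intensities from Agilent Feature Extraction 10.7.3.1, background-subtracted and detrended but not normalized between arrays, with the mean and background signals and quality marks. They also deposited log2 values, normalized and centred on each probe, which served as an alternative here. Non-uniform spots and population outliers were excluded (115 to 283 spots per array, which left 146 probe values missing), replicate spots were averaged as log2, and each array was shifted by its 75th percentile. A probe was tested if every array of 1 genotype or the other showed it positive, significant and well above background. Tests used limma (version 3.58.1, R 4.3.3) and the Benjamini-Hochberg method across all tested probes. The brightest tested probe stood for its gene. The code was tested on simulated data. The number of arrays limits the precision.

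The genes and lists were chosen with earlier results of these data known. Named genes are the 10 genes, the 3 largest called rises and falls of each list, genes with a described role, the marker with the largest change, and the 10 most alike genes. Probe coordinates are those of the array design (mm9), and promoters are from RefSeq (GRCm38.p6). Tables and figures were made in Python 3.11.15 with pandas 2.3.3 and matplotlib 3.10.9. The results for 2 listed genes are not reported here. Protein, histology and qRT-PCR data were not analysed here.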

Additional observations from a re-analysis of the deposited data

Results flagged for a closer look

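The *Mcm7* level of Rbpj+/+ replicate 2, at 2.76, lay far below the other Rbpj+/+ animals (3.22, 3.30 and 3.28). Its gap to the nearest of them was 0.854 of the whole range, above Dixon's critical value for 4 samples at the level of 95%. This was 1 of 13 groups of values examined, and chance flags about 1 in 20. Without this animal the *Mcm7* log2 fold change was 0.58 (limma adjusted p = 0.090).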

How the results depend on the processing

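Of the 10 genes, *Mcm2* to *Mcm6* and *Rrm2* were called higher under every one of 17 alternatives run. The number called higher was 9 as reported and stayed between 7 and 9, with 8 of 8 tested where a probe had to be well above background on all 7 arrays. Without a filter on dim probes *Mcm7* and *Pcna* were not called (log2 fold changes unchanged at 0.71 and 1.31, limma adjusted p = 0.28 and 0.15). In that setting 2038 of 55681 probes were called, and the share of all genes called higher fell from 14.6% to 2.71%. Higher genes then numbered 2 for licensing and firing, 5 for polymerases and 1 for deoxynucleotide supply. They numbered 4 for chromatin and fork protection and 2 for E2F and pocket proteins. With normexp background correction the *Tyms* log2 fold change reversed to -0.22, which did not pass (limma adjusted p = 0.18). Well above background on all 7 arrays left 7 mitosis genes called, by fewer genes tested, and a threshold of 0.05 left 2 genes of deoxynucleotide supply. Leaving out Rbpj+/+ replicate 2 and Rbpj-/- replicate 1 together, chosen after seeing the data, also gave 2 there and 8 of the 10 genes, since *Mcm7* missed the threshold (limma adjusted p = 0.102). Leaving out each animal in turn gave 8 to 9 of the 10 genes, 4676 to 9020 probes, 6 to 10 licensing and firing genes, 9 to 14 polymerase genes, 2 to 4 deoxynucleotide genes, 6 to 10 chromatin genes and 2 to 5 E2F and pocket protein genes. Over the same runs 9.69% to 14.6% of all tested genes were called higher. The lowest values came without Rbpj-/- replicate 2 for probes (4676) and polymerases (9), without Rbpj+/+ replicate 4 for licensing and firing (6), and without Rbpj+/+ replicate 3 the probes were 5464. The cause of these changes was not tested. The slide as a block was not run, because each row of the 1 slide holds 1 genotype. No paired analysis was possible because the labels give no numbers shared by the genotypes. Low signal over background limits *Cdc6* and *Tyms* in Rbpj+/+ liver.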
